A study of Mus musculus with 12 samples.

Results

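Genes of collagen matrix, fibroblasts, marrow stroma and osteoblasts, 35 in number, were followed by RNA sequencing in 12 mouse cultures grown to form osteoclasts, the bone-resorbing cells with several nuclei. The genes were picked by name from the 55414 gene IDs counted in every library, with earlier results of these data known. Their shares beside those of all genes are therefore descriptions, not contrasts with a blind choice. The cultures formed 4 groups of 3 libraries: Notch2 mutant cells with a Hes1 deletion, wild type cells with a Hes1 deletion, Notch2 mutant cells with Hes1 loxP, and wild type cells with Hes1 loxP. Notch2 is a receptor that signals between neighbouring cells, and Hes1 is a repressor of transcription that Notch signals induce. In every group Hes1 is labelled as either flanked by loxP sites or deleted, so no group is labelled with an unmodified Hes1 gene. The labels name neither the Notch2 mutation nor the Cre or other means of deletion, and do not say how many animals stand behind a library. Bone marrow came from male littermates of 7 to 8 weeks. Macrophages were grown with M-CSF, a macrophage growth factor, at 30 ng/ml. The osteoclast-inducing factor RANKL was added on day 3 and kept for 4 days.

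Osteoclasts arise from the macrophage lineage, whereas the matrix of bone and marrow is made by mesenchymal cells, among them fibroblasts, reticular stromal cells and osteoblasts. Type I collagen, a triple helix of Col1a1 and Col1a2 chains, is the main protein of bone matrix, and collagens of types III, V, VI and XII join or decorate its fibres. Stromal and osteoblast cells also supply RANKL and its decoy receptor osteoprotegerin to osteoclast precursors, and the marrow stroma is the main source of the chemokine Cxcl12. Marrow that is flushed and plated can carry such cells into a macrophage culture. The libraries are bulk samples, so fewer cells of a type and less RNA per cell cannot be told apart in any value below.

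The libraries held 13832368 to 19293772 counts in genes. Levels are given as CPM, a gene's counts scaled to a fixed total of counts in genes. A list of 11 osteoclast genes, among them Acp5 and Ctsk, summed to 31510 to 50600 CPM, and a list of 10 macrophage genes to 9325 to 11320 CPM. As a check of the labels, the Notch2 mutant Hes1 deletion libraries held 0, 1 and 1 counts of Hes1. The wild type cultures with the deletion held 0, 0 and 2. In cultures with Hes1 loxP, counts of Hes1 were 3, 2 and 2 in the Notch2 mutant, against 6, 11 and 6 in wild type. Counts this low do not separate the Notch2 mutant Hes1 loxP libraries from the Hes1 deletion libraries, which held up to 2. Notch2 lay between 143 and 175 CPM in all 12 libraries, which checks no label, since the site of the mutation is not given. Nothing in the labels says whether replicates came from separate mice, so p-values measure the spread between these cultures. Genes were tested with edgeR's quasi-likelihood test on 13403 genes that passed a filter on low counts, and "called" means a Benjamini-Hochberg adjusted p under 0.05 over all of them. Of the 35 genes, 31 passed the filter. Lum, Lepr, Bglap and Ibsp did not and are given by their counts.

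Start regions of 22 of the 35 genes, 26 in number, were found in a RefSeq table of build GRCm38.p6, each running from 250 bases before to 50 bases after an annotated start. They are shown for Col1a2, the member whose counts followed Col1a1 most closely over the libraries, and for Cald1 and Vcan, which were lower in Notch2 mutant libraries with Hes1 loxP. Capitals mark each match to CCAAT, a short motif found in many promoters, read as CCAAT on the strand shown or as ATTGG for the other strand. Coordinates are chr6:4505368-4505667 on the plus strand for Col1a2, chr6:34598254-34598553 on the plus strand for the upstream start of Cald1 and chr13:89742463-89742762 on the minus strand for Vcan.
Col1a2: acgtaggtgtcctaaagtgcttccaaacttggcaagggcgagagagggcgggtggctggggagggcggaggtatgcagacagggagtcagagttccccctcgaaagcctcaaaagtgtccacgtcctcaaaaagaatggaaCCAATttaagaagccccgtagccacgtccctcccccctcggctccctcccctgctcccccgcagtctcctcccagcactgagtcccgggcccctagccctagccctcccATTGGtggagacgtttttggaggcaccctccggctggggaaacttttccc
Cald1: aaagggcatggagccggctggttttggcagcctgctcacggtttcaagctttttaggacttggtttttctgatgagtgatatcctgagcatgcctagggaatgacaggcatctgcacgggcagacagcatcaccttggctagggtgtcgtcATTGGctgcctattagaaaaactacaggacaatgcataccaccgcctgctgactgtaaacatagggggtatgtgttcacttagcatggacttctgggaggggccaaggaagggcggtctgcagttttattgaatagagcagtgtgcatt
Vcan: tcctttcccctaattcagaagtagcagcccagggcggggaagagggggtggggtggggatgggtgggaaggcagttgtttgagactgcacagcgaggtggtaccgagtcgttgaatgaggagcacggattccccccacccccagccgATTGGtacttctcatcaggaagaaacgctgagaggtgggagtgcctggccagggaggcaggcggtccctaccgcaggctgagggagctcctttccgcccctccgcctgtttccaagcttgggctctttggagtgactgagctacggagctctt

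With the first transcribed base counted as 0, the matches began at -109 and 0 in Col1a2, at -99 in Cald1 and at -103 in Vcan. CCAAT was held on either strand by 6 of the 26 regions, those of Bglap, Cald1, Col1a2, Ibsp, Lepr and Vcan, against 37.4% of all 32851 start regions in the table. Each region shown above holds a match. The region of Col6a3, also lower in those mutant libraries, and that of the downstream start of Cald1 hold none and are not shown. TATAAA was held by 5 of the 26 regions, against 13.6% of all. The CArG box, the motif of serum response factor in many contractile genes, was searched on both strands. An exact match was in 0 of the 26 regions, against 1.63% of all. Near matches were not counted, such as ccctatatgg and ccttgtttgg in the region of Acta2. These matches describe the letters in each window and were not tied to binding of any factor.

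The 35 genes together took 0.0354 to 0.0770% of the counts in genes. Their levels spanned a wide range, and Vcan and Col1a1 made up 40.0% of their summed CPM. Which cells the reads of Vcan, or of any other of the 35 genes, came from was not tested. Per kilobase of exon, the highest mean level over the 12 libraries was that of Ly6a, at 18.7 CPM per kb. It encodes the surface antigen Sca-1, which is carried by marrow mesenchymal progenitors and also by other cells. Col1a1 followed at 17.1, the proteoglycan versican (Vcan) at 9.33, the collagen-binding glycoprotein Sparc at 8.22, the collagen chaperone Serpinh1 at 7.62 and smooth muscle actin, Acta2, at 6.96 CPM per kb. Col1a2 stood at 5.90 and the collagen-crosslinking enzyme Lox at 5.89 CPM per kb. The osteoblast genes were far lower on the same scale. Runx2, the transcription factor that starts osteoblast differentiation, was at 0.510 CPM per kb, alkaline phosphatase (Alpl) at 0.389 and Sp7, the factor acting after Runx2, at 0.133. Bone sialoprotein, Ibsp, was at 0.109 and osteocalcin, Bglap, at 0.0512 CPM per kb. The stromal receptor gene Lepr was at 0.0425, and Lum, a collagen-binding proteoglycan, was the lowest at 0.00782 CPM per kb. Some stromal genes were as low as the osteoblast genes, with Cxcl12 at 0.0577 and Pdgfra at 0.0515 CPM per kb. Col1a1, Col1a2, Sparc and Serpinh1 had reads in every library, whereas Bglap and Lum had few reads in all. Ly6a belongs to a family of near-identical genes, and so does Bglap, so the assignment of their reads is uncertain.

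Summed over all 35 genes, levels were lower in Notch2 mutant than in wild type libraries in both Hes1 settings. The sums were 631, 567 and 499 CPM in Notch2 mutant Hes1 deletion libraries, against 737, 770 and 749 CPM in wild type Hes1 deletion libraries. With Hes1 loxP they were 481, 354 and 549.5 CPM in Notch2 mutant libraries, against 729, 682 and 654 CPM in wild type libraries. The mutant and wild type libraries did not overlap in either setting. Group means were 566 ± 65.6 CPM for Notch2 mutant Hes1 deletion, 752 ± 16.6 for wild type Hes1 deletion, 461.5 ± 99.4 for Notch2 mutant Hes1 loxP and 688.5 ± 37.7 for wild type Hes1 loxP (SD, n = 3 each). Replicates also lay further apart in the mutant groups. Without replicate 2 of the Notch2 mutant Hes1 loxP group, its mean was 515 CPM. No test was run on these sums.

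**Figure D1:**
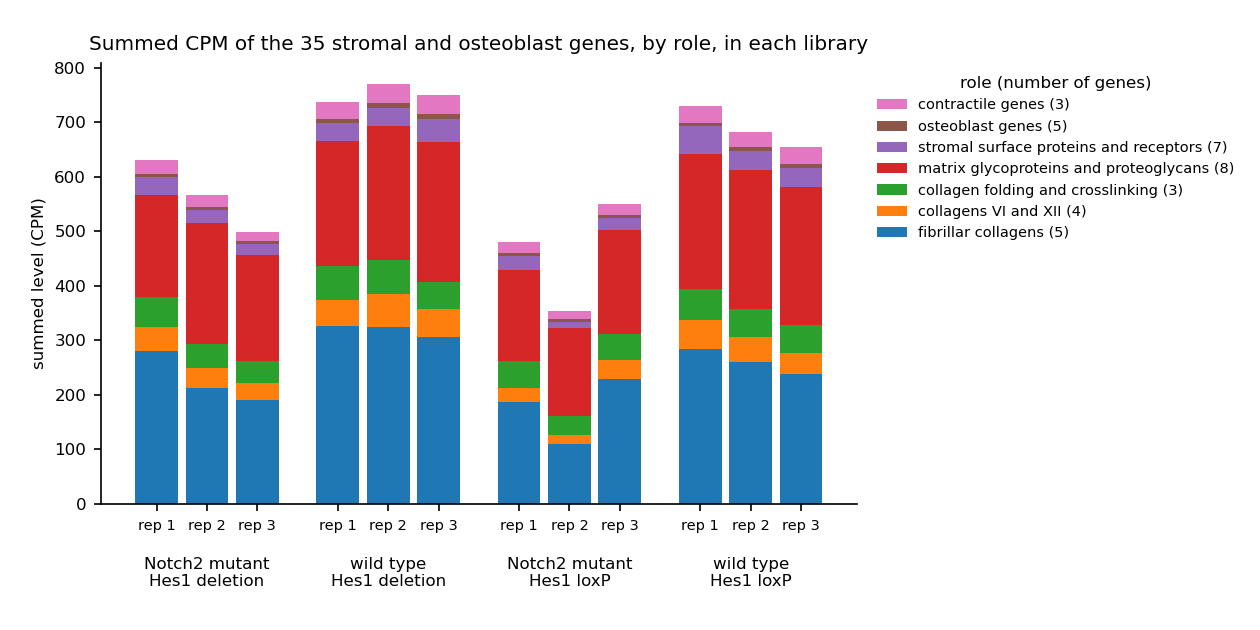
Summed CPM of the 35 genes in each of the 12 libraries (bars, stacked by the role of the genes, with the number of genes per role in the legend). All 6 Notch2 mutant libraries, at 354 to 631 CPM, stand below all 6 wild type libraries, at 654 to 770 CPM, and the fibrillar collagens and the matrix glycoproteins and proteoglycans fill most of every bar.

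By role, the 5 fibrillar collagens summed to 228 ± 46.6 CPM in Notch2 mutant Hes1 deletion libraries, against 319 ± 11.7 in wild type Hes1 deletion libraries. With Hes1 loxP they summed to 176 ± 60.6 CPM in the mutant, against 260.4 ± 22.7 in wild type (SD, n = 3 each). The 8 matrix glycoproteins and proteoglycans summed to 201 ± 18.7 CPM in Notch2 mutant Hes1 deletion libraries, against 244 ± 14.3 in the wild type ones. Their sums with Hes1 loxP were 174 ± 15.2 CPM in the mutant, against 252 ± 3.76 in wild type. The 5 osteoblast genes summed to 5.76, 6.92 and 5.98 CPM in Notch2 mutant Hes1 deletion libraries, against 7.64, 9.07 and 9.78 CPM in wild type Hes1 deletion libraries, and these groups did not overlap. With Hes1 loxP they summed to 5.71, 5.30 and 5.74 CPM in the mutant, against 4.54, 8.29 and 6.62 CPM in wild type, groups that overlapped.

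One library stood apart within its group. Replicate 2 of Notch2 mutant Hes1 loxP was the lowest of all 12 libraries for 23 of the 31 tested genes. At the other end, replicate 2 of wild type Hes1 deletion was the highest of all 12 for 17 of the 31. Within the Notch2 mutant Hes1 loxP group, Col1a1 was at 84.2, 50.3 and 103 CPM, and its replicate 3 held 2.06 times the level of replicate 2. The same ratio of replicate 3 to replicate 2 was 2.02 for Col1a2, 2.47 for Sparc and 3.58 for Igfbp7, which binds insulin-like growth factors. It was 0.927 for Vcan, 0.916 for Tagln, the actin-binding protein transgelin, and 0.870 for Runx2. Between these replicates the collagen genes all moved in the same direction, least so Col6a3 at 1.37 and Col12a1 at 1.68. Vcan, Tagln and Runx2 did not move with them. Values without replicate 2 of Notch2 mutant Hes1 loxP follow the comparison it enters.

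**Figure D2:**
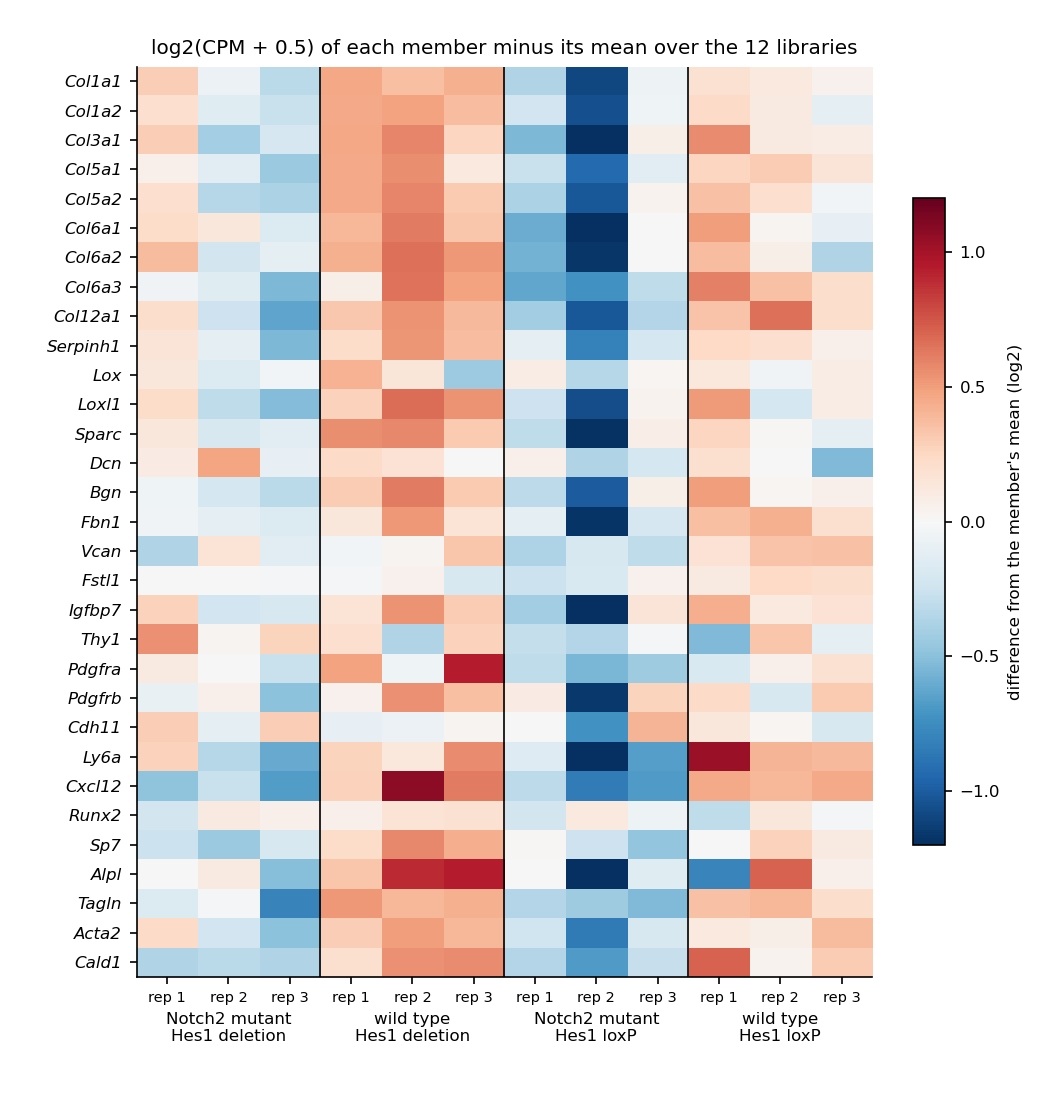
Each of the 31 tested genes (rows, ordered by role) in the 12 libraries (columns), as log2(CPM + 0.5) minus the gene's mean over the libraries, with red for higher and blue for lower. The column of Notch2 mutant Hes1 loxP replicate 2 is blue in most collagen rows, while Vcan, Fstl1 and Runx2 stay pale in it.

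The joint movement was described by each gene's count ratio to Col1a1 within a library, which depth cannot change. The ratio of Col1a2 to Col1a1 lay between 0.589 and 0.715 over the 12 libraries, a 1.21-fold span. It was a 1.31-fold span for Sparc and a 1.42-fold span for Serpinh1. Col1a1 itself spanned 2.97-fold in CPM, so these genes kept close to it across libraries of all 4 groups. Among the 25 genes with at least 10 counts in every library, the widest spans of the ratio to Col1a1 were 2.79-fold for Dcn and Ly6a, 2.91-fold for Fstl1, 2.95-fold for Vcan, 3.09-fold for Lox and 3.43-fold for Runx2. Fstl1, a secreted glycoprotein related to follistatin, instead had a nearly even level of its own, with a 1.43-fold span in CPM. Runx2 spanned 1.46-fold, Vcan 1.65-fold and Lox 1.83-fold in CPM. The ratio of Fstl1, Vcan, Lox and Runx2 to Col1a1 was highest in Notch2 mutant Hes1 loxP replicate 2, the library with the lowest Col1a1. These spans are descriptions over libraries that differ in depth, and no p was computed for them.

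**Figure D3:**
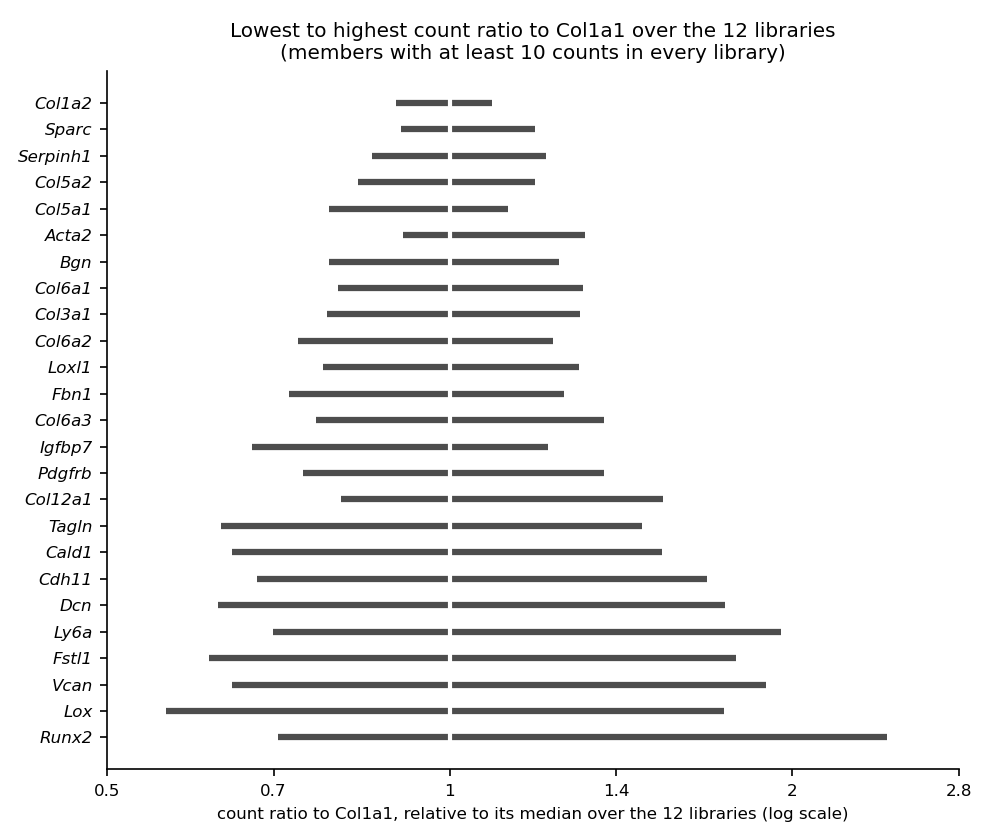
Span from the lowest to the highest count ratio to Col1a1 over the 12 libraries for the 25 genes with at least 10 counts in every library, divided by the gene's median ratio (log axis, white tick at the median). Col1a2 and Sparc have the narrowest spans, 1.21-fold and 1.31-fold, and Runx2 the widest, 3.43-fold.

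With Hes1 loxP, where the effect of the Notch2 mutation was asked in cells labelled as carrying undeleted Hes1, 7 of the 31 tested genes fell in Notch2 mutant cultures and none rose. Over all 13403 genes 0.776% were called, 0.634% lower and 0.142% higher in the mutant. The 7 genes were Col6a3, Col12a1, Vcan, Ly6a, Cxcl12, Tagln and Cald1. In GRCm38, GENCODE M21 places Col6a3 at chr1:90765923-90843971 (minus strand), Col12a1 at chr9:79598991-79718831 (minus strand), Vcan at chr13:89655312-89742509 (minus strand), Ly6a at chr15:74994877-74998031 (minus strand). It places Cxcl12 at chr6:117168535-117181367 (plus strand), Tagln at chr9:45929619-45936058 (minus strand) and Cald1 at chr6:34598500-34775473 (plus strand). In 15 of the 31 genes all mutant libraries lay below all wild type libraries, against 11.1% of all genes, and in none did they all lie above, against 7.2% of all genes. The log2 fold change was negative in 30 of the 31, with a median of -0.56 and a median over all genes of 0.00. An unadjusted p under 0.05 was reached by 20 of the 31, all negative, against 14.2% of all genes. The number called was 8 by DESeq2 and 5 by limma-voom.

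Among the 9 collagen genes, the 2 called belong to collagens VI and XII. Col6a3, a chain of the beaded filaments of collagen VI, had 6.58, 6.08 and 8.32 CPM in Notch2 mutant Hes1 loxP libraries, against 16.1, 13.4 and 12.1 CPM in wild type Hes1 loxP libraries. All mutant libraries lay below all wild type ones, and the log2 fold change was -0.95 ± 0.17 (SE), with an edgeR adjusted p of 0.0154. Col12a1, which binds the surface of type I fibres, had 5.06, 3.18 and 5.34 CPM in the mutant, against 8.94, 11.2 and 8.12 CPM in wild type. These groups did not overlap either, and the fold change was -1.05 ± 0.21 (edgeR adjusted p = 0.0247). The other chains of collagen VI, Col6a1 and Col6a2, were at -0.72 ± 0.24 and -0.55 ± 0.24 and were not called.

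None of the 5 fibrillar collagens passed, although all were negative, between -0.73 and -0.44. Col1a1 had 84.2, 50.3 and 103 CPM in Notch2 mutant Hes1 loxP libraries, against 123, 117 and 112 CPM in wild type Hes1 loxP libraries. The groups did not overlap, and the log2 fold change was -0.54 ± 0.17 (edgeR adjusted p = 0.159). Col3a1, of reticular and other soft fibres, was at -0.73 ± 0.24, and Col5a1, of the collagen that nucleates type I fibrils, at -0.64 ± 0.17, neither called. Of the genes for folding and crosslinking, Serpinh1 was at -0.50 ± 0.17 and the lysyl oxidase relative Loxl1 at -0.54 ± 0.29. Lox itself, with 29.6, 21.8 and 28.2 CPM in the mutant against 30.5, 27.0 and 29.7 CPM in wild type, was at -0.11 ± 0.16, and its groups overlapped.

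Among the matrix glycoproteins and proteoglycans only Vcan was called. It had 102, 116 and 107 CPM in Notch2 mutant Hes1 loxP libraries, against 149.7, 168 and 169 CPM in wild type Hes1 loxP libraries. The groups did not overlap, with a log2 fold change of -0.56 ± 0.10 and an edgeR adjusted p of 0.0154. Fstl1 had 20.7, 21.8 and 25.8 CPM in the mutant, against 26.7, 29.5 and 28.9 CPM in wild type, groups that did not overlap, at -0.29 ± 0.09 and not called. Fbn1, the microfibril protein fibrillin 1, was at -0.88 ± 0.26, the small proteoglycan biglycan (Bgn) at -0.54 ± 0.20, Igfbp7 at -0.72 ± 0.30 and Sparc at -0.42 ± 0.20, none called. Decorin, Dcn, the proteoglycan most like biglycan, was at -0.08 ± 0.31.

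Of the surface proteins and receptors, a role in which the chemokine gene Cxcl12 was also placed, Ly6a and Cxcl12 were called. Ly6a had 18.5, 8.09 and 12.9 CPM in Notch2 mutant Hes1 loxP libraries, against 43.0, 27.6 and 27.3 CPM in wild type Hes1 loxP libraries. All mutant libraries lay below the wild type ones, and the log2 fold change was -1.29 ± 0.24 (edgeR adjusted p = 0.0166). Cxcl12, the chemokine that retains blood progenitors in marrow, rested on few reads, with 3, 0 and 1 counts in the mutant against 10, 13 and 13 counts in wild type. Its groups did not overlap, and its fitted log2 fold change was -2.98 ± 0.68 (edgeR adjusted p = 0.0493). The ratio of summed counts, 4 in the mutant against 36 in wild type, was 0.115, with a counting interval of 0.0297 to 0.32. Leaving out Notch2 mutant Hes1 loxP replicate 1 made it 0.0398, and leaving out replicate 2 of that group made it 0.180. The growth factor receptor genes Pdgfra and Pdgfrb were at -1.13 ± 0.55 and -0.29 ± 0.31, the mesenchymal cadherin Cdh11 at -0.01 ± 0.33 and the surface protein Thy1 at -0.32 ± 0.47, none called.

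Both called contractile genes encode actin-binding proteins. Tagln had 3.25, 3.07 and 2.81 CPM in Notch2 mutant Hes1 loxP libraries, against 5.62, 5.80 and 5.06 CPM in wild type Hes1 loxP libraries. The groups did not overlap, with a log2 fold change of -0.83 ± 0.19 (edgeR adjusted p = 0.0464). Cald1, caldesmon, had 4.34, 3.35 and 4.61 CPM in the mutant, against 9.59, 5.86 and 7.12 CPM in wild type. The log2 fold change was -0.84 ± 0.18 (edgeR adjusted p = 0.0433) between groups that did not overlap. Acta2 was at -0.60 ± 0.17 and was not called, though its groups did not overlap either. Exons of Tagln overlap genes on the other strand, Pcsk7 and Gm48529, and no source used here gives the strand setting of the counting. Counts of Tagln may therefore be too high or too low at the shared bases. The same holds for Col5a1, Fbn1, Igfbp7, Lox, Pdgfra and Runx2, which also overlap exons on the other strand.

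The osteoblast genes gave no call. Runx2 had 3.76, 4.91 and 4.27 CPM in Notch2 mutant Hes1 loxP libraries, against 3.53, 4.98 and 4.39 CPM in wild type Hes1 loxP libraries, and was the one gene of 31 with a positive value, 0.02 ± 0.17. Sp7 had 6, 5 and 3 counts in the mutant against 6, 12 and 9 in wild type, with a log2 fold change of -0.85 ± 0.45. Alpl, at -0.85 ± 0.54, was uneven among replicates, with 19, 2 and 21 counts in the mutant against 8, 49 and 26 in wild type.

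**Figure D4:**
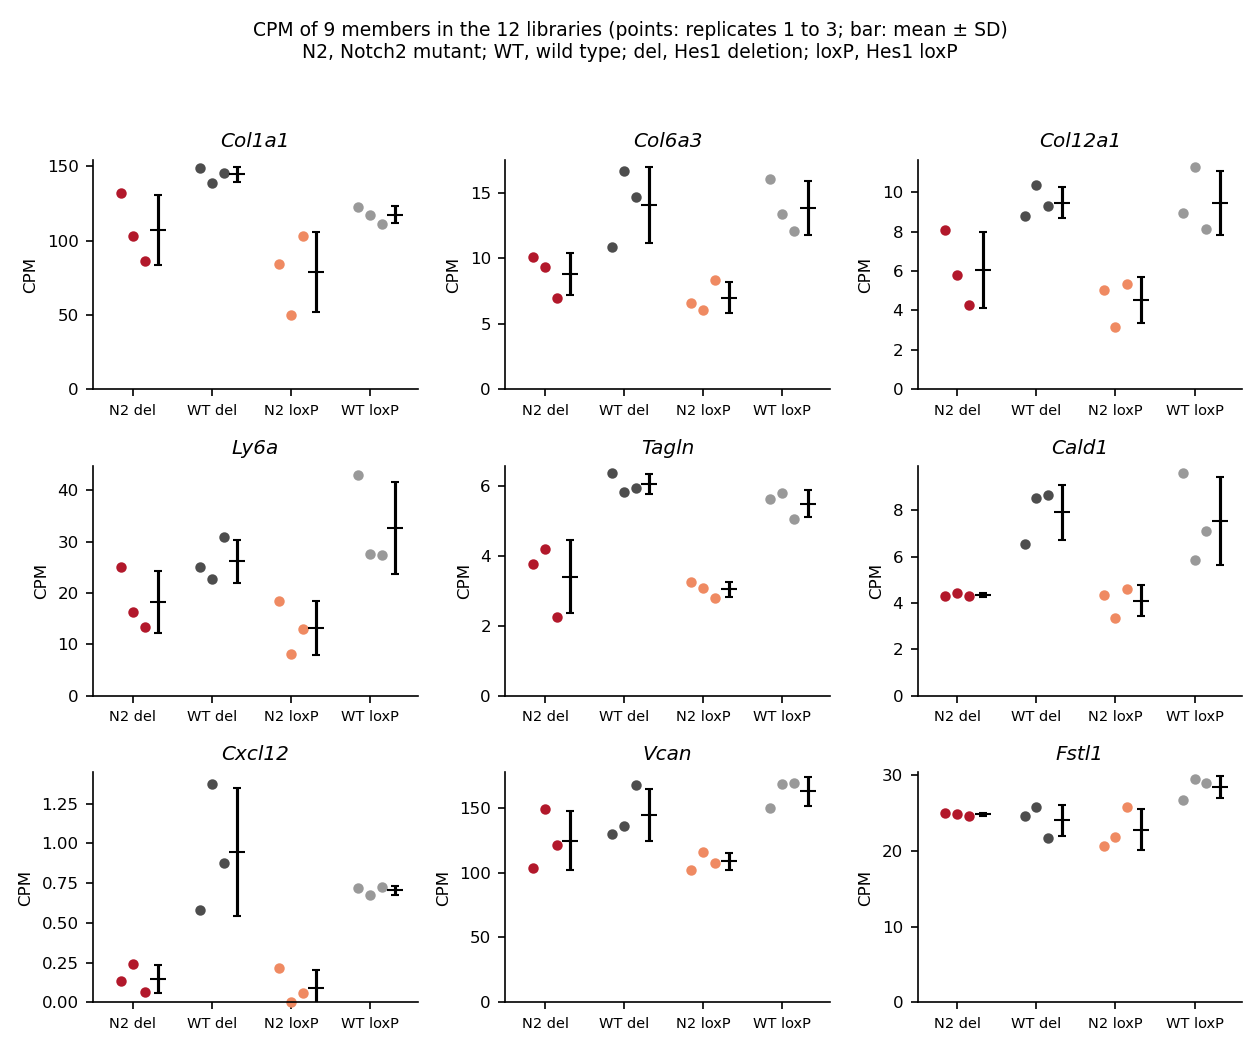
CPM of 9 genes in the 12 libraries (points, replicates 1 to 3 from left to right; bar, mean ± SD) for Notch2 mutant (N2) and wild type (WT) cultures with Hes1 deletion (del) or Hes1 loxP. Tagln and Cald1 show the mutant groups below the wild type groups in both Hes1 settings, Vcan shows it with Hes1 loxP while its groups overlap with Hes1 deletion, and Fstl1 stays between 20.7 and 29.5 CPM.

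The calls in this comparison depended on single libraries, here and over all genes. Without replicate 2 of Notch2 mutant Hes1 loxP the count was 1, Vcan, while 47 were called over all genes, against 104 with all libraries. Leaving out replicate 1 of wild type Hes1 loxP also left 1, again Vcan, with 27 called over all genes. Dropping replicate 2 of wild type Hes1 loxP left 2, Ly6a and Cald1, with 35 called over all genes. When replicate 3 of Notch2 mutant Hes1 loxP was dropped the count was 3, of which Col6a3 alone was among the 7, Col3a1 and Col6a1 being called in addition and Vcan lost, with 28 called over all genes. The count was 4 when replicate 3 of wild type Hes1 loxP was dropped, with 111 called over all genes. It was also 4 without replicate 1 of Notch2 mutant Hes1 deletion, a library that enters through the shared spread, with 99 called over all genes.

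Vcan passed in 17 of 19 alternatives, Ly6a and Col6a3 in 16 and Col12a1 in 15. Tagln passed in 9 of 19, Cald1 in 8 of 19 and Cxcl12 in 7 of 17. Over these alternatives the log2 fold change lay between -0.61 and -0.52 for Vcan, -0.89 and -0.78 for Tagln, -0.99 and -0.64 for Cald1, and -1.11 and -0.84 for Col6a3. It lay between -1.21 and -0.83 for Col12a1 and between -1.60 and -1.03 for Ly6a. The median over the 31 genes, -0.56 with all libraries, became -0.30 when replicate 2 of Notch2 mutant Hes1 loxP was left out, and -0.84 when replicate 3 of that group was. The ratio of summed counts, mutant over wild type and scaled to depth, was 0.674 for Col1a1 with all libraries and 0.813 without replicate 2 of Notch2 mutant Hes1 loxP. In the same order it was 0.738 and 0.921 for Sparc, for Igfbp7 0.600 and 0.790, for Fbn1 0.527 and 0.675, for Col6a1 0.605 and 0.764, and for Alpl 0.523 and 0.780.

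With the Hes1 deletion, the Notch2 mutant and wild type cultures, which share no library with the comparison above, differed in the same direction without any call. The edgeR test called 0 of the 31 genes, and DESeq2 and limma-voom also called 0. Over all genes the share called was 0.0149%. An unadjusted p under 0.05 was reached by 20 of the 31, all negative, against 6.69% of all genes. The log2 fold change was negative in 27 of 31, with a median of -0.52. In 19 of the 31 genes all mutant libraries lay below all wild type libraries, against 7.48% of all genes, and in none did they all lie above, against 4.9%.

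The smallest adjusted p among the 31 genes was that of Cald1. It had 4.32, 4.45 and 4.30 CPM in Notch2 mutant Hes1 deletion libraries, against 6.54, 8.52 and 8.65 CPM in wild type Hes1 deletion libraries. These groups did not overlap, and the log2 fold change was -0.84 ± 0.18 (edgeR adjusted p = 0.313). Tagln, with 3.77, 4.21 and 2.24 CPM in the mutant against 6.37, 5.83 and 5.95 CPM in wild type, was at -0.81 ± 0.18, and its groups did not overlap. Cxcl12 again rested on few reads, with 2, 4 and 1 counts in the mutant against 10, 25 and 14 in wild type. Its ratio of summed counts was 0.156 (counting interval 0.0594 to 0.345). Leaving out Notch2 mutant Hes1 deletion replicate 2 made this 0.103. Sp7 had 4, 3 and 5 counts in the mutant against 10, 16 and 12 in wild type, at -1.50 ± 0.44 between groups that did not overlap. The ratio of its summed counts, 12 against 38, was 0.344, with a counting interval of 0.164 to 0.672. Alpl had 20, 25 and 13 counts in the mutant against 32, 54 and 49 in wild type, at -1.08 ± 0.48.

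The fibrillar collagens and the collagens VI and XII were again all negative, between -0.67 for Col6a3 and -0.39 for Col6a1. Col1a1 had 132, 103 and 86.1 CPM in Notch2 mutant Hes1 deletion libraries, against 149.2, 139 and 146 CPM in wild type Hes1 deletion libraries, at -0.42 ± 0.17 with no overlap. Vcan had 104, 149 and 122 CPM in the mutant, against 129, 136 and 167 CPM in wild type, at -0.20 ± 0.10, and its groups overlapped. Ly6a was at -0.51 ± 0.24. The 4 genes with positive values were Thy1 at 0.39 ± 0.42, Cdh11 at 0.30 ± 0.32, Dcn at 0.06 ± 0.29 and Fstl1 at 0.06 ± 0.09.

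Set side by side, 26 of the 31 genes were negative in both Notch2 comparisons. The 7 genes called with Hes1 loxP were all negative with the Hes1 deletion. Of these 7, 6 had an unadjusted edgeR p under 0.05 there and 6 had a smaller size. These 7 were picked by passing the threshold with Hes1 loxP, so a smaller size in the other comparison can arise from that choice alone. Over all 31 genes, the median Notch2 effect was -0.56 for loxP cultures and -0.52 for deletion cultures. These genes were not picked by that threshold, but were chosen with earlier results of these data known. The median for loxP cultures also depended on single libraries, as given above. The difference between the 2 Notch2 effects was tested directly as the interaction. The edgeR test called 0 of 31 genes, as did DESeq2 and limma-voom, and 0% of all genes were called. The unadjusted p was under 0.05 for 3 of the 31 genes, against 3.78% of all genes. They were Ly6a at 0.78 ± 0.34, Vcan at 0.36 ± 0.14 and Fstl1 at 0.35 ± 0.13, where a positive value means a Notch2 effect less negative with the Hes1 deletion. All 3 had an edgeR adjusted p of 0.999.

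**Figure D5:**
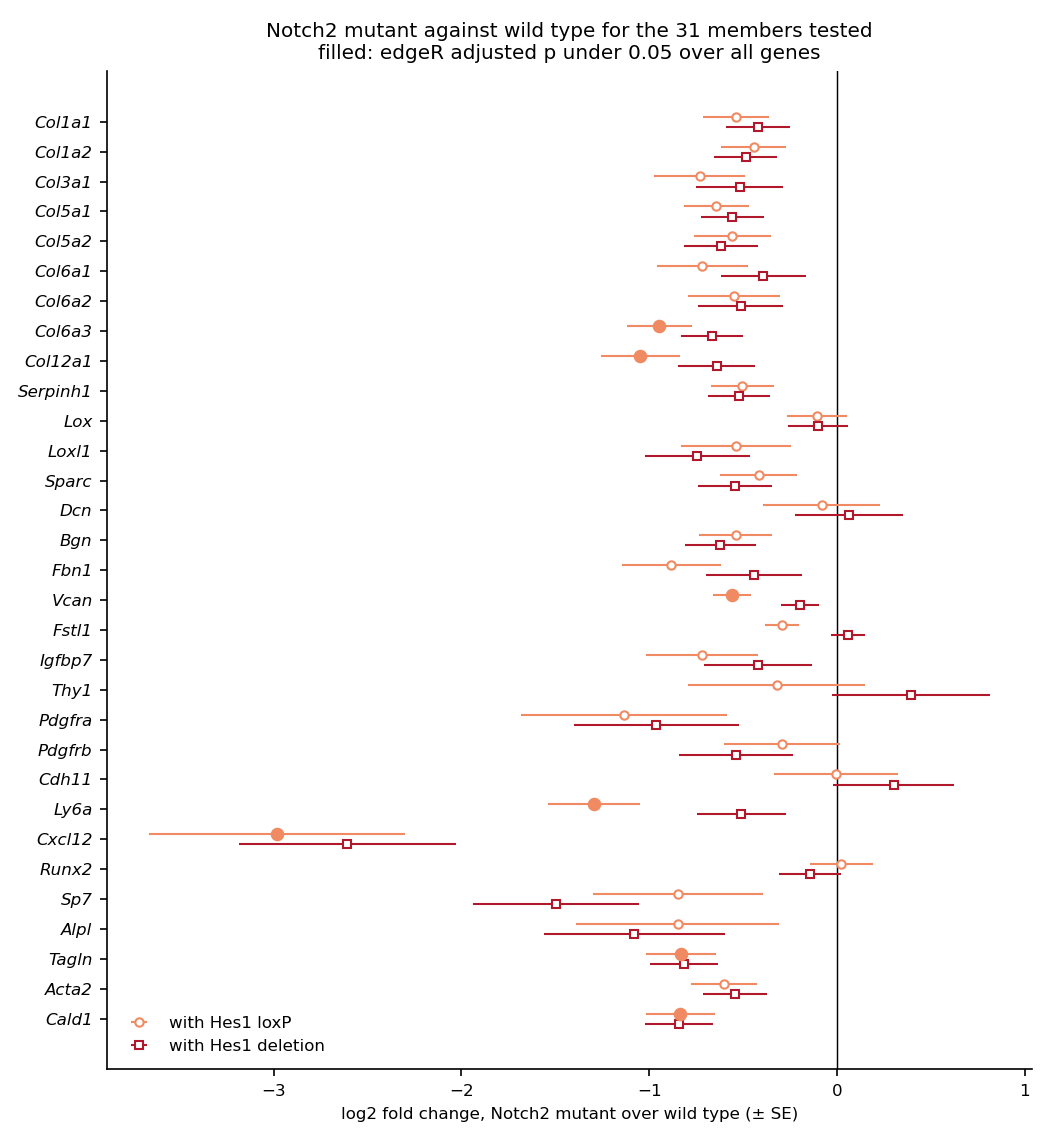
Log2 fold change of Notch2 mutant over wild type (± SE) for the 31 tested genes, in cultures with Hes1 loxP (circles) and after Hes1 deletion (squares), filled where the edgeR adjusted p was under 0.05. Most points lie left of 0 in both settings, and the 7 filled points are all circles.

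After Hes1 deletion most of the 31 genes had slightly higher values, and none was called. In wild type cultures the edgeR test called 0 of the 31 genes between Hes1 deletion and Hes1 loxP libraries, as did DESeq2 and limma-voom. Of all genes 0.0373% were called, 0.0224% higher and 0.0149% lower after deletion. The log2 fold change was positive in 25 of 31, with a median of 0.19. All deletion libraries lay above all loxP libraries in 5 of the 31 genes, against 7.28% of all genes, and below them in 1, Fstl1, against 3.57%. An unadjusted p under 0.05 was reached by 3 genes, against 5.93% of all genes. Col6a2 was at 0.49 ± 0.22 and Sparc at 0.42 ± 0.19. Sparc had 44.0, 44.8 and 37.1 CPM in wild type Hes1 deletion libraries, against 35.8, 30.1 and 27.4 CPM in wild type Hes1 loxP libraries, with no overlap. Fstl1, the third, was at -0.26 ± 0.09, with 24.5, 25.7 and 21.7 CPM after deletion against 26.7, 29.5 and 28.9 CPM with Hes1 loxP.

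In Notch2 mutant cultures the Hes1 deletion gave 0 calls among the 31 genes by edgeR, DESeq2 and limma-voom. Of all genes edgeR called 0.0373%, 0.0298% higher and 0.00746% lower after deletion. The log2 fold change was positive in 29 of 31, with a median of 0.29. It became 0.045 when replicate 2 of Notch2 mutant Hes1 loxP was left out, and 0.52 when replicate 3 of that group was. In 2 of the 31 genes all deletion libraries lay above all loxP libraries, against 8.1% of all genes, and in none did they all lie below, against 2.93%. An unadjusted p under 0.05 was reached by Col6a1 at 0.62 ± 0.25, Col6a2 at 0.53 ± 0.25 and Col1a1 at 0.40 ± 0.18, 3 genes in all, against 4.76% of all genes. With that replicate 2 left out, the log2 fold change was 0.30 for Col6a1, 0.25 for Col6a2 and 0.15 for Col1a1. Each Hes1 comparison shares both of its groups with the Notch2 comparisons, so these values are not independent of those above.

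The 4 genes below the filter had few counts. Ibsp, a matrix protein of mineralizing osteoblasts, had 2, 6 and 2 counts in Notch2 mutant Hes1 deletion libraries, against 9, 3 and 13 in wild type ones. With Hes1 loxP its counts were 2, 0 and 2 in the mutant, against 0, 3 and 3 in wild type. Its summed counts in wild type cultures were 25 after Hes1 deletion against 6 with Hes1 loxP, which gives a ratio of 4.14 (counting interval 1.66 to 12.4). Those replicates overlapped, the interval covers counting error only, and the ratio lay between 2.88 and 5.64 with single libraries left out. Lepr, the leptin receptor that marks reticular stromal cells, had 5, 1 and 7 counts in Notch2 mutant Hes1 deletion libraries, against 2, 2 and 8 in wild type ones. With Hes1 loxP it had 10, 6 and 6 counts in the mutant, against 2, 4 and 5 in wild type. The Lepr ratio of mutant over wild type was 2.07 with Hes1 loxP (counting interval 0.960 to 4.72), where that of Cxcl12 was 0.115. Bglap had 6 counts and Lum 4 over all 12 libraries.

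Further genes of the same cells were read from lists. Of 20 tested other genes of stromal matrix, 5 fell in the Notch2 mutant with Hes1 loxP and none rose, against 0.634% of all genes called lower and 0.142% called higher. The median of the 20 was -0.53. The 4 with the smallest adjusted p were Tnc at -1.09 ± 0.10, Thbs2 at -1.15 ± 0.18, Timp3 at -1.29 ± 0.23 and Tnn at -1.34 ± 0.26, with edgeR adjusted p from 2.09e-05 to 0.0196. Tnc, Tnn and Thbs2 encode matrix proteins that modulate cell adhesion, and Timp3 inhibits metalloproteinases. With the Hes1 deletion Tnc fell to 17.8 ± 1.22 CPM in the mutant, against 28.9 ± 3.12 CPM in wild type (SD, n = 3 each), at -0.68 ± 0.09, and Timp3 was also lower, at -1.33 ± 0.21 (edgeR adjusted p = 0.00812 and 0.0452), the 2 genes of 13403, or 0.0149%, called in that comparison. Tnc was also higher after Hes1 deletion in Notch2 mutant cultures, at 0.64 ± 0.10 (edgeR adjusted p = 0.0169). Exons of Timp3 and Tnc overlap genes on the other strand. Of 9 other mesenchymal genes, Pdpn, which encodes podoplanin, fell with Hes1 loxP, at -1.03 ± 0.18 (edgeR adjusted p = 0.0131).

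Of the enzymes that process collagen, 15 were tested and 0 were called in either Notch2 comparison. By edgeR, an unadjusted p under 0.05 was reached by 4 in cultures with Hes1 loxP and by 3 after Hes1 deletion, against 14.2% and 6.69% of all genes. The list summed to 683 to 757 CPM over all libraries. Of 15 other osteoblast and osteocyte genes 2 passed the filter, of which edgeR called 0 and 1 had an unadjusted p under 0.05 with Hes1 loxP, and Bglap2, Bglap3 and Mepe were at 0 counts in all 12 libraries. The 15 summed to 5.40 to 7.76 CPM. Tnfrsf11b, which encodes osteoprotegerin, had 8 counts in Notch2 mutant Hes1 loxP libraries against 24 in wild type Hes1 loxP libraries, giving 0.344 as their ratio (counting interval 0.134 to 0.792). With the Hes1 deletion it had 10 counts in the mutant against 29 in wild type, giving 0.375 (counting interval 0.163 to 0.792). Tnfsf11, the RANKL gene, had 4 against 7 and 3 against 5 counts in the same pairs.

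Markers of other cells were read beside these values. With Hes1 loxP 3 of 10 macrophage genes were called lower in the Notch2 mutant, Msr1, Fcgr1 and Adgre1, against 0.634% of all genes. An unadjusted p under 0.05 was reached by 9 of the 10, 7 of them negative, against 14.2% of all genes. The 10 summed to 9855 ± 501 CPM in the mutant against 10830 ± 432 CPM in wild type. After Hes1 deletion edgeR called 0 of the 10, 1 had an unadjusted p under 0.05, and they summed to 10430 ± 384 CPM in the mutant against 10480 ± 137 CPM in wild type. Of 11 osteoclast genes 1, Ocstamp, was called higher with Hes1 loxP, against 0.142% of all genes. An unadjusted p under 0.05 was reached by 8 of the 11, against 14.2% of all genes, and 10 of the 11 were positive. The list summed to 48180 ± 2352 CPM in the mutant against 40140 ± 1675 CPM in wild type. In the Notch2 comparison with the Hes1 deletion edgeR called 0 of the 11, while 7 had an unadjusted p under 0.05, against 6.69% of all genes. Again 10 were positive, and the list summed to 39940 ± 2088 CPM in the mutant against 35490 ± 3450 CPM in wild type. Of 8 neutrophil genes 1, Mmp8, was called lower with Hes1 loxP, against 0.634% of all genes. Their sum was 221 ± 28.4 CPM in the mutant against 285 ± 38.5 CPM in wild type (SD, n = 3 each). All 8 were negative there, 5 with an unadjusted p under 0.05, against 14.2% of all genes. After Hes1 deletion edgeR called 0 of the 8, and 0 had an unadjusted p under 0.05, against 6.69% of all genes. Endothelial genes summed to 10.5 to 15.8 CPM, lymphocyte genes to 4.54 to 9.53 CPM and adipocyte genes to 4.34 to 7.27 CPM over all libraries, with none called by edgeR in a Notch2 comparison and with Cldn5, Cidec and Lep at 0 counts in all 12. Smooth muscle genes other than the contractile genes above summed to 27.3 to 33.9 CPM, with none called by edgeR. With Hes1 loxP an unadjusted p under 0.05 was reached by 3 of 5 tested endothelial genes, 0 of 3 lymphocyte genes, 0 of 2 adipocyte genes and 2 of 5 smooth muscle genes, against 14.2% of all genes. After Hes1 deletion 1 smooth muscle gene and 0 of the endothelial, lymphocyte and adipocyte genes did, against 6.69%. The osteoclast protease gene Ctsk was called lower after Hes1 deletion, at -1.10 ± 0.07 in Notch2 mutant and -0.99 ± 0.07 in wild type cultures (edgeR adjusted p = 8.89e-08 and 4.84e-07). The part of these cell types in the values of the 35 genes was not tested.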

How the data were processed

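The labels' protocols describe stranded mRNA libraries sequenced in 1 pool with paired ends of 75 bp. The authors deposited raw counts, whole numbers for each gene ID. GRCm38, HISAT2, HTSeq, Picard, SAMtools and DESeq2 are named, without versions, per the submitters' processing notes. The strand setting of the counting is given in no source used here. The 5 summary rows of each deposited table, 15.8 to 19.0% of its total, were left out. GENCODE M21 named 52081 of 55414 IDs and gave exon lengths.

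The quasi-likelihood test of edgeR 4.0.16 (R 4.3.3) was fitted to all 12 libraries with 1 mean per group, TMM scaling and filterByExpr (minimum count 10, minimum total 15), and was tested on simulated data. CPM is without TMM scaling. Counting intervals (95%, exact binomial on summed counts) cover counting error only. Replicates differed by more than sampling noise. The text names all 35 genes and, of other lists, the genes called, up to 4 by smallest adjusted p; Tnfrsf11b and Tnfsf11 were named after their values were seen. Members and lists were chosen with earlier results of these data known. Other settings were limma-voom (limma 3.58.1), DESeq2 1.42.0, RLE scaling, a minimum mean count of 50, the unfiltered table, a replicate block, each library left out, fits of only the groups compared, and sums without Vcan.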

Additional observations from a re-analysis of the deposited data

How the results depend on the processing

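Without a filter on low counts the genes called were 21 (Notch2 mutant over wild type, Hes1 loxP), 18 (the same, Hes1 deletion), 5 and 6 (Hes1 deletion over Hes1 loxP in wild type and in Notch2 mutant cultures) and 2 (interaction). Calls over all 25080 genes then rose too, to 657, 138, 135, 110 and 63 in the same order, against 104, 2, 5, 5 and 0 with the filter, and the cause was not tested. With single libraries left out, the count of 7 ranged from 1 to 8. Without Vcan the summed levels were 441 CPM for Notch2 mutant Hes1 deletion, 608 for wild type Hes1 deletion, 353 for Notch2 mutant Hes1 loxP and 526 for wild type Hes1 loxP. Of 578 values of single genes with Hes1 loxP, 506 kept their direction and side of the threshold, 43 lost a call, 19 gained one and 10 changed sign. With the Hes1 deletion 560 of 582 were kept, 18 gained a call and 4 changed sign. All changes of sign came from leaving out 1 library. With Hes1 loxP the log2 fold changes then ranged from -0.46 to 0.34 for Cdh11, -0.33 to 0.11 for Dcn, -0.19 to 0.021 for Lox, -0.65 to 0.10 for Pdgfrb, -0.090 to 0.15 for Runx2 and -0.60 to 0.17 for Thy1. With the Hes1 deletion they ranged from -0.16 to 0.22 for Dcn, -0.018 to 0.11 for Fstl1 and -0.31 to 0.11 for Lox. With the replicate block 6 genes were called in place of 7 with Hes1 loxP, while calls over all genes rose from 104 to 148. Over 18 pairs of same-numbered replicates the correlation of their deviations ran from -0.12 to 0.14 and was over 0.1 in 3. Of the 12 libraries, 7 lay closest to their own number. Whether same-numbered replicates were paired cannot be told from these values. Genes with few counts, such as Cxcl12, Sp7 and the 4 below the filter, are limited by depth.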
